A study of Mus musculus with 4 samples.

Results

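Thick ascending limb (TAL) cells that express Cldn10 were taken from single-cell RNA-Seq of whole mouse kidneys. The TAL is the stretch of the nephron that takes up NaCl through the cotransporter NKCC2 (Slc12a1) and is impermeable to water. Its tight junctions are lined by claudins. Claudin-10 (Cldn10) forms a pore for sodium, and claudin-16 (Cldn16) with claudin-19 lets calcium and magnesium pass, and single TAL cells are known to favour either claudin. Uromodulin (Umod) is the main protein that TAL cells secrete into urine.

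The members were chosen by measured values. A barcode was a member if it had 200 to 5000 detected genes, under 50% mitochondrial unique molecular identifiers (UMIs), at least 5 Slc12a1 UMIs and at least 10 of them per 10000 UMIs. It also needed fewer than 10 UMIs per 10000 of the proximal tubule genes Slc34a1 and Lrp2 together, at least 1 Cldn10 UMI, and more Cldn10 than Cldn16 UMIs. This gave 3069 members among 34789 barcodes within the limits on genes and mitochondrial UMIs, and among 58660 barcodes in all. Of the 4285 barcodes that met the Slc12a1 and proximal tubule limits, 669 had more Cldn16 than Cldn10 UMIs and are called Cldn16 cells below.

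The kidneys came from male C3H/HeJ mice, WT or homozygous for the Sweet Pee (SP) missense allele of Slc5a2, the gene of the glucose cotransporter SGLT2. Mice were put on normal diet (ND) or on a high-fat diet (HFD, 60% of calories from fat) at 10 weeks of age for 8 weeks, so that they were 18 weeks old at harvest. There was 1 library per condition, and the number of mice behind a library was not given in the sources used here. The WT libraries are named WT-ND and WT-HFD, the SP libraries are named SP-ND and SP-HFD, and wherever 4 values are listed they follow this order. The SP allele is present in every cell of the SP mice, and SGLT2 itself is a protein of the proximal tubule. Over all kept barcodes, Slc5a2 stood at 162, 99.6, 22.3 and 23.3 CPM (UMIs of a gene per 1000000 UMIs), so both SP libraries were below both WT libraries. A missense allele need not change the mRNA level, so these values do not check the genotype labels.

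The members numbered 732, 677, 869 and 791. In WT, they made up 6.73% of kept barcodes on ND (Clopper-Pearson 95% interval 6.27 to 7.22) and 6.98% on HFD (6.48 to 7.50). In SP, the share was 12.9% on ND (12.1 to 13.7) and 10.6% on HFD (9.91 to 11.3). Among barcodes under 30% mitochondrial UMIs, the shares were 3.46%, 4.32%, 5.84% and 6.12%, so that the order by diet in SP turned while SP stayed above WT. The SP shares were thus above the WT shares beyond counting error, which is all that these intervals cover. Barcodes with 50% or more mitochondrial UMIs, which are not among the kept barcodes, made up 32.7%, 33.2%, 49.8% and 42.1% of the 4 libraries in the same order, and their part in the difference of the shares was not tested. Among Slc12a1-gated barcodes, the members held 68.2%, 74.6%, 73.3% and 70.8%, respectively.

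The median member had 5978.5, 8542, 9821 and 7425 UMIs and 1766, 2261, 2517 and 2138 detected genes. Medians of 33.9%, 33.1%, 36.6% and 33.2% of these UMIs were mitochondrial. Without mitochondrial genes, which were left out of all levels below, the members held 3353355, 4214805, 5496096 and 4421131 UMIs. WT-ND was therefore the shallowest of the libraries for these cells. A pair of libraries shared 54 to 77 barcode sequences, and 10, 7, 11 and 12 members had a barcode that was also present in another library.

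The label was checked on TAL genes that the gate did not use. Umod was detected in 95.9%, 96.9%, 96.3% and 97.5% of members after each cell had been thinned to 1000 UMIs, which left out 3, 2, 6 and 6 shallower members. In endothelial barcodes, kept barcodes that had at least 5 UMIs and 20 per 10000 of 6 endothelial genes and were below the Slc12a1 and proximal tubule limits, the same share was 17.2%, 21.0%, 19.2% and 22.3%, at median depths of 2810.5, 3983, 2736 and 3067 UMIs. The 8 TAL markers that are not gate genes summed to 32013, 34160, 24801 and 33051 CPM in the members, against 506, 636, 406 and 505 CPM in endothelial barcodes. The label and these markers were therefore on the same side in all 4 libraries.

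RNA of other cell types was present at low levels. The 14 proximal tubule markers summed to 6265, 4291, 1537 and 1941 CPM in the members, of which Kap, an abundant androgen-responsive transcript of the proximal tubule, made up 4302, 2709, 617 and 1121 CPM. Their sum in endothelial barcodes was of like size, at 7312, 3844, 2131 and 2654 CPM. Kap was detected in 89.6%, 64.4%, 36.4% and 56.6% of thinned members, and in 94.4%, 84.9%, 67.2% and 79.1% of thinned endothelial barcodes, so that the share in the members was below that in cells that should lack the gene in all 4 libraries. The 7 endothelial markers summed to 137 to 208 CPM in the members and to 9569 to 10052 CPM in the endothelial gate. Markers of macrophages summed to 34.0, 183, 56.9 and 97.7 CPM, with Lyz2 the most abundant. Markers of the collecting duct's principal cells summed to 320, 284, 134 and 141 CPM, and those of the distal convoluted tubule to 285, 373, 345 and 293 CPM. The sums were 163 to 231 CPM for the thin limb, with those of podocytes (73.3 to 157), intercalated cells (99.0 to 227), fibroblasts and mural cells (71.0 to 85.3), neutrophils (2.1 to 76.2) and lymphocytes (0.6 to 8.1) in the same range or below it. No gene of any of these lists was at 0 in all libraries. Members with markers of other classes, such as at least 1 UMI of Ptprc or Pecam1 or at least 3 of Slc12a3, Aqp2 or Atp6v1g3, numbered 86, 118, 122 and 92.

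Cldn10 lies on chromosome 14 of GRCm38, the assembly that is also called mm10, at chr14:118787908-118875489 on the plus strand. Its 3 protein-coding GENCODE transcripts begin at either of a pair of separate first exons. The first exon of 2 transcripts ends at position 118788370, and the first exon of the third transcript starts at 118854732 and ends at 118855209. All 3 share the second exon, from 118861696 to 118861857, and a last exon that starts at 118874192. The last exon ends at 118874524 or 118874525 in the first 2 transcripts and at 118875489 in the third. The libraries were made from 3′ ends and the counts were given per gene, so they do not separate the forms. Cldn16 lies at chr16:26463135-26482765 on the plus strand, Slc12a1 at chr2:125152505-125230002 on the plus strand and Umod at chr7:119462711-119479282 on the minus strand.

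The gate genes are given as a description only. Cldn10 stood at 1654, 2339, 1869 and 2309 CPM in the members, with a median of 5, 10, 10 and 10 UMIs per cell. Cldn16 stood at 95.7, 92.8, 110 and 123 CPM, and Slc12a1 at 8805, 6179, 8164 and 6828 CPM. Slc12a1 was thus lower in both HFD libraries. In WT-HFD, 24 members had 10 to 12 Slc12a1 UMIs per 10000, against 2 in WT-ND and 4 and 13 in the SP libraries. Just outside the threshold, at 8 to 10 per 10000, there were 37 barcodes in WT-HFD and 7, 1 and 4 in the others. The WT-HFD barcodes just inside held 1630 CPM of Slc12a1, 7356 of Umod and 2150 of Egf, and those just outside held 1383, 6011 and 1582 CPM. Members with exactly 1 Cldn10 UMI numbered 68, 43, 52 and 46.

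The members varied widely among themselves in the RNA of the secreted products Umod and Egf. The part of counting error and depth in the spans given here was not tested. In WT-ND, Umod ranged from 39.6 UMIs per 10000 non-mitochondrial UMIs at the 10th percentile of cells to 375 at the 90th, with a median of 182. Egf, the gene of epidermal growth factor, ranged from 9.49 to 231 with a median of 80.4, so that its 90th percentile was a larger multiple of its 10th than for Umod, although the span in UMIs was smaller. In the other libraries, in the same order, the median of Egf was 47.8, 36.5 and 60.6 per 10000. Ptger3, which encodes the prostaglandin E2 receptor EP3, was detected in 25.9%, 27.4%, 33.6% and 27.4% of members thinned to 1000 UMIs, and in 77.7%, 79.8%, 86.5% and 82.9% of members at their full depth. In thinned endothelial barcodes it was detected in 0.446%, 1.18%, 1.46% and 0.62%.

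The first comparison asked how TAL cells that favour Cldn10 differ from those that favour Cldn16 in the same library. Cldn10 cells had higher levels of the transcription factors Irx1 and Irx2, the receptor gene Ptger3, the secretory-granule gene Sycn and the small heat shock protein gene Cryab. They had lower levels of the transcription factor Foxq1, of Tmem52b, of the parathyroid hormone receptor gene Pth1r, of the kinase gene Wnk1 and of Egf. UMIs were summed per library and cell set, and the 8 sums were compared with edgeR's quasi-likelihood test with the library as a block (n = 4 libraries, Benjamini-Hochberg FDR of 0.05). The libraries differ in diet and genotype, so the spread that the test used is that of the difference across these 4 conditions. Of 10626 genes tested, 749 (7.05%) were higher and 570 (5.36%) lower in Cldn10 cells. The gate genes and mitochondrial genes were not tested. Median depth was close in the Cldn16 cells, at 5626, 8436, 8997 and 7946 UMIs. Levels in this comparison are CPM scaled by the trimmed mean of M values (TMM). Where a log2 fold change is given with an SE, the SE was derived from the fold change and the F statistic of the test.

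Irx1 (chr13:71957921-71963723, minus strand) stood at 221, 242, 198 and 265 TMM-scaled CPM in Cldn10 cells, against 16.7, 22.1, 20.5 and 22.5 in Cldn16 cells. The sets did not overlap, and the log2 fold change was 3.47 ± 0.12 (SE, n = 4 libraries, adjusted p = 3.74e-13). Irx2, its neighbour on the same chromosome (chr13:72628820-72634198, plus strand), differed by 2.71. Of the same family of homeobox genes, Irx3 differed by -1.87 and Irx5 by -3.37 on the log2 scale, so that members of the family passed the test in opposite directions. Foxq1 (chr13:31556134-31560976, plus strand), a forkhead factor, stood at 20.8, 23.9, 23.3 and 38 TMM-scaled CPM in Cldn10 cells and at 307, 341, 301 and 381 in Cldn16 cells, a log2 fold change of -3.65 ± 0.10 (SE, n = 4 libraries). Of the 16 tubule transcription factors listed, all were tested. Of these, 6 were higher and 4 lower, beside 7.05% and 5.36% of all genes. Their median log2 fold change was 0.21, beside -0.0034 over all genes. Ehf (0.86), Esrrb (0.78) and Esrrg (0.51) were among those higher in Cldn10 cells.

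Among receptors, Ptger3 (chr3:157566892-157645888, plus strand) stood at 528, 585, 704 and 563 TMM-scaled CPM in Cldn10 cells and at 40.0, 108, 84.5 and 65.5 in Cldn16 cells. The log2 fold change was 2.99 ± 0.12 (SE, n = 4 libraries, adjusted p = 3.40e-12). Avpr2, the gene of the vasopressin V2 receptor, was higher by 0.94 but was not higher in every library, being lower in WT-ND. Pth1r (chr9:110722085-110747145, minus strand) stood at 252, 189, 204 and 275 in Cldn10 cells and at 1006, 859, 1139 and 1078 in Cldn16 cells, a log2 fold change of -2.16. Casr, the calcium-sensing receptor gene, was at -0.94. Thus 2 receptors of 6 tested were higher and 2 lower, beside 7.05% and 5.36% of all genes. Of 7 tested genes of calcium and magnesium handling, none was higher and 2 were lower, beside 7.05% and 5.36% of all genes: the calcium pump genes Atp2b4 (-1.0) and Atp2b1 (-0.61).

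Of 14 tested genes of salt transport, 7 were higher and 5 lower, beside 7.05% and 5.36% of all genes, with a median of 0.19. Fxyd2, the gamma subunit of the sodium pump, was at 7323, 9689, 8593 and 9165 TMM-scaled CPM in Cldn10 cells against 3968, 4319, 3771 and 3631 in Cldn16 cells (log2 fold change 1.14 ± 0.07, SE, n = 4 libraries). Atp1b1, the gene of the pump's beta subunit, was higher by 0.33. Kcnj1, the potassium channel ROMK of the luminal side, was higher by 0.30, and Stk39, the kinase SPAK that activates NKCC2, by 0.45. Wnk1, a kinase upstream of SPAK, was at 442, 364, 602 and 588 against 1403, 1341, 2471 and 1765, a log2 fold change of -1.80. Wnk4 differed by 0.29 in the other direction. The basolateral potassium channel genes Kcnj10 (-1.54) and Kcnj16 (-0.58) and the sodium-proton exchanger gene Slc9a3 (-0.45) were lower.

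**Figure D1:**
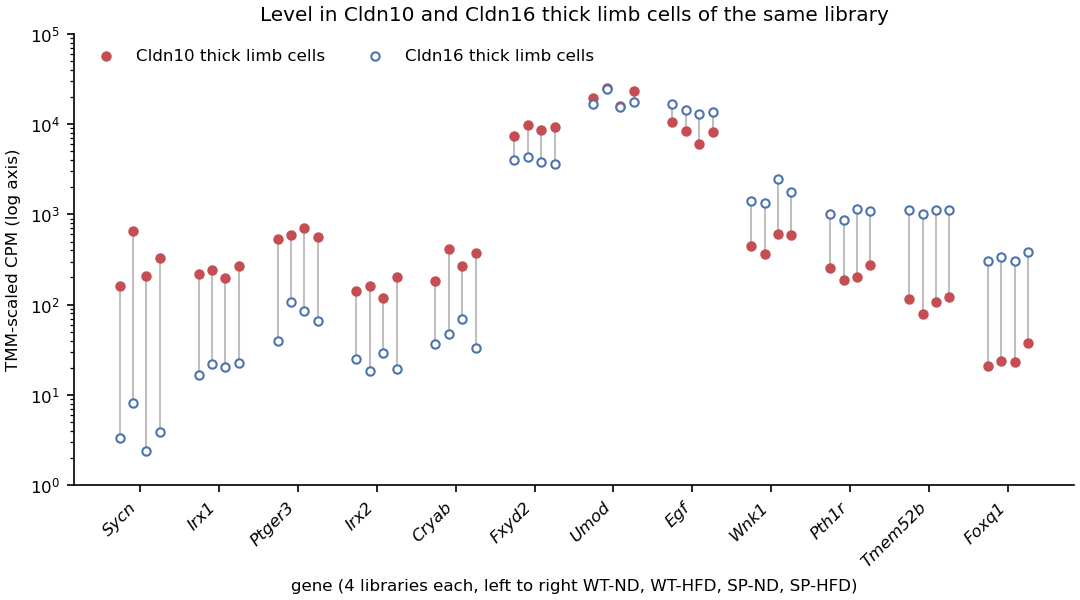
TMM-scaled CPM on a log axis for 12 genes in Cldn10 cells (filled) and Cldn16 cells (open) of the same library, joined by a line, with the 4 libraries from left to right within each gene. Sycn, Irx1, Ptger3, Irx2, Cryab and Fxyd2 lie higher in Cldn10 cells in all 4 libraries, Egf to Foxq1 lie lower in all 4, and the points of Umod nearly coincide.

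Umod did not pass the test, at 19516, 25106, 15788 and 23000 TMM-scaled CPM in Cldn10 cells and 16560, 24549, 15430 and 17576 in Cldn16 cells (log2 fold change 0.17, adjusted p = 0.13). The other secreted product, Egf, did pass, at 10413, 8413, 6011 and 8112 against 16520, 14386, 12891 and 13534 (-0.82 ± 0.07, SE, n = 4 libraries). In tight junctions, Cldn14, which is known to be induced by calcium in the TAL, had a log2 fold change of -3.79, from 43 UMIs in Cldn10 cells against 140 in Cldn16 cells. Cldn19, the partner of claudin-16, was at 249, 269, 252 and 266 TMM-scaled CPM in Cldn10 cells and 268, 251, 197 and 208 in Cldn16 cells, and did not pass (adjusted p = 0.19). Of the 7 tested tight junction genes, none was higher and 2 were lower, Cldn14 and Cldn8 (-0.32), beside 7.05% and 5.36% of all genes, and the call of Cldn8 was lost under 6 alternatives.

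The genes with the largest fold changes toward Cldn10 cells were nearly absent from Cldn16 cells. Sycn (chr7:28540885-28542209, plus strand) had 5766 UMIs in Cldn10 cells and 16 in Cldn16 cells, or 159, 657, 207 and 329 against 3.33, 8.14, 2.37 and 3.91 TMM-scaled CPM (log2 fold change 6.28 ± 0.16, SE, n = 4 libraries, adjusted p = 3.03e-15). Gsg1l had 210 UMIs against 0, a log2 ratio of at least 3.62 by its counting interval. With Cldn16 cells given a floor of 3 counts over all libraries, the ratio was 15.3-fold. Slc6a12, which encodes a transporter of betaine, an osmolyte, had 838 UMIs against 6. Rph3a had 311 against 1, a log2 ratio of pooled CPM between 3.60 and 11.4 by its counting interval. Npy had 337 against 3 (3.06 to 6.90), Prkar2b 279 against 3 (2.78 to 6.63), Scel 224 against 2 (2.74 to 7.67), Gm2115 193 against 2 (2.52 to 7.45), Gm6878 188 against 2 (2.49 to 7.41) and Rgs7 170 against 1 (2.72 to 10.5). At the other end, Tmem52b (chr6:129512555-129519227, plus strand) stood at 117, 79.1, 107 and 123 TMM-scaled CPM in Cldn10 cells and at 1109, 1006, 1131 and 1113 in Cldn16 cells (-3.37 ± 0.08, SE, n = 4 libraries). Cntnap2 (-3.96), Nrxn3 (-3.30), Greb1 (-3.30), Scarf2 (-3.20), Nefl (-2.99) and B830017H08Rik (-2.66) were also lower.

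Genes picked after their values had been seen add to both sides. Eprn (chr13:73344665-73347384, minus strand) was higher in Cldn10 cells by 3.75 on the log2 scale, Esam by 3.92 and Nccrp1 by 3.14. Car15, a carbonic anhydrase gene, was at 837, 364, 715 and 765 TMM-scaled CPM in Cldn10 cells and at 3037, 1983, 3277 and 2979 in Cldn16 cells (-2.11).

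The counts of the groups that follow stand beside 7.05% higher and 5.36% lower over all genes tested. Among metabolic groups, 7 of 14 tested glycolysis genes were higher and none lower (median 0.26), among them Pfkl (1.03), Ldha (0.96), Eno1 (0.52) and Hk1 (0.49). The glucose transporter gene Slc2a1 was higher by 0.64. In sterol and lipid synthesis, 7 of 13 were lower and 1 higher (median -0.42), with Idi1 at -0.97 and Elovl6, the exception, at 1.52. Of 87 nuclear genes of oxidative phosphorylation, 16 were higher and none lower (median 0.11), and of 77 ribosomal protein genes 1, Rps16 (0.23), was higher and none lower (median 0.05). Among injury genes, 2 of 15 were higher and 4 lower. Cryab and Vim (1.38) were higher. Without cells with markers of other classes, however, Vim was at 0.085 and did not pass (adjusted p = 0.92). Of the 2 macrophage markers tested, Lyz2 was higher in Cldn10 cells (1.91), though lower in WT-ND, and it did not pass without WT-HFD (1.02, adjusted p = 0.16). Cryab was at 183, 418, 271 and 374 against 36.6, 47.7, 68.7 and 33.2 (2.70), whereas Clu was at -1.50, Wfdc2 at -0.67, Sox4 at -0.49 and Spp1 at -0.36. Markers of the thin limb passed in 4 of 5 cases, all higher in Cldn10 cells (median 1.46), among them the urea transporter gene Slc14a2 (2.96) and the water channel gene Aqp1 (1.74). Slc14a2 did not follow in WT-ND, at 2.71 against 5.00 TMM-scaled CPM, while the other 3 libraries had 35.7, 47.8 and 19.9 against 2.33, 3.95 and 3.91. None of the 12 tested proximal tubule markers passed in either direction. Of the distal convoluted tubule markers, 1 of 5 tested was lower in Cldn10 cells, and of the intercalated cell markers 1 of 4. No marker of either list was higher.

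These counts depend on the depth and the tool. When each cell was thinned to 1000 UMIs, 128 genes were higher and 119 lower of 4532 tested, and with DESeq2 367 were higher and 305 lower. Leaving out SP-ND gave 498 and 383, the lowest counts among the libraries left out. Of the genes named, Cldn8 did not pass without WT-ND (-0.29), WT-HFD (-0.29) or SP-ND (-0.31), Avpr2 without WT-HFD (0.87) or SP-ND (0.70), Esrrg without SP-ND (0.47) or SP-HFD (0.43), Kcnj1 without WT-HFD (0.28) and Wnk4 without WT-HFD (0.26). Avpr2, Cldn8, Esrrg, Lyz2, Slc14a2 and Vim did not pass with DESeq2 (adjusted p from 0.13 for Slc14a2 to 0.29 for Lyz2), and Kcnj1 (0.24) and Wnk4 (0.18) did not pass with at least 2 UMIs of the leading claudin and 0 of the other. After thinning, Atp2b1, Cldn8, Ehf, Esrrb, Esrrg, Hk1, Kcnj1, Slc2a1, Slc9a3, Stk39 and Wnk4 did not pass (adjusted p from 0.073 for Wnk4 to 0.80 for Cldn8). Without the library block, Atp1b1, Avpr2, Cldn8, Kcnj1, Lyz2, Nefl, Slc14a2, Spp1, Stk39 and Wnk4 did not pass (adjusted p from 0.056 for Nefl to 0.21 for Wnk4). Each of these kept its sign.

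Within the members, several genes differed with the balance of the 2 claudins, though not all in the direction of the Cldn16 cells. Members with Cldn10 and no Cldn16 UMI numbered 522, 464, 551 and 533, and members with both 210, 213, 318 and 258. Egf stood at 8057, 4892, 4491 and 5840 CPM in the former and at 14352, 12581, 8412 and 11172 CPM in the latter. The members with both claudins thus lay closer to the Cldn16 cells, which held 15818, 13683, 12959 and 13619 CPM. Sycn showed the opposite order, at 218, 1017, 308 and 529 CPM in members with Cldn10 alone and 49.2, 48.1, 82.2 and 27.8 in members with both. Pth1r was at 200, 108, 143 and 148 CPM in the former and 339, 285, 299 and 451 in the latter. Ptger3 varied less, at 546, 605, 789 and 621 against 482, 486, 630 and 460 CPM. Irx1 was at 207, 193, 212 and 208 against 240, 286, 191 and 340 CPM, with no common order. Irx2 went the other way, at 123, 110, 105 and 158 CPM in members with Cldn10 alone and at 174, 213, 144 and 261 CPM in members with both, although it was lower in Cldn16 cells. A cell with few UMIs is less likely to hold a Cldn16 UMI, and in WT-ND the median depth was 5336 UMIs in members with Cldn10 alone and 7053.5 in members with both. The part of depth in these differences was not tested.

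**Figure D2:**
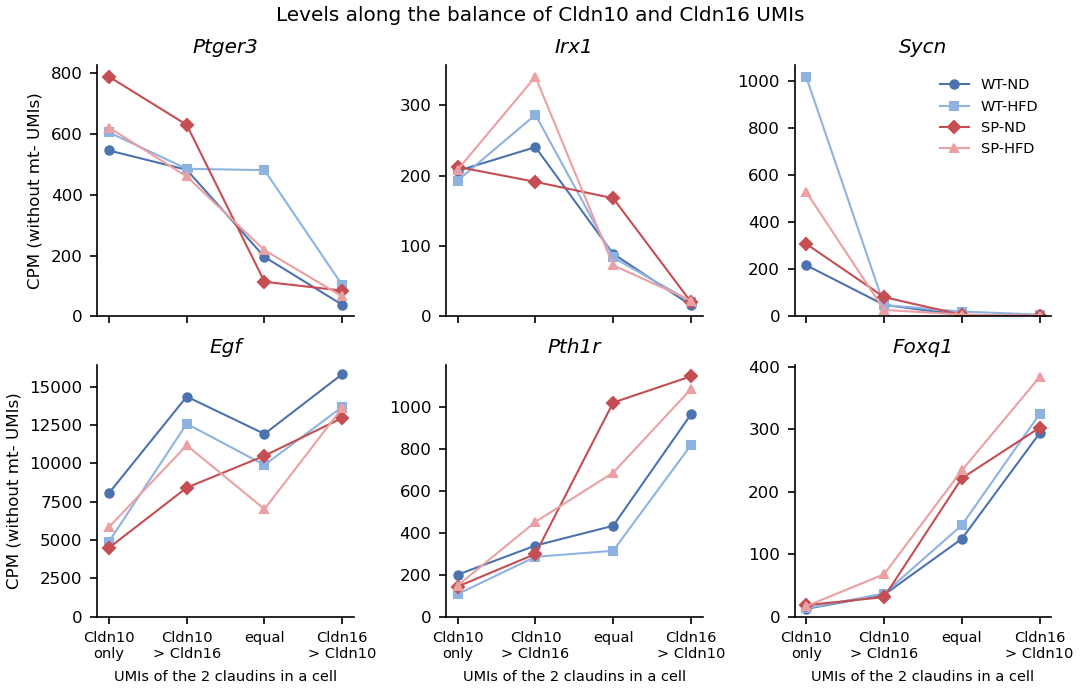
CPM without mitochondrial UMIs of 6 genes in cells grouped by their Cldn10 and Cldn16 UMIs, 1 line per library. From cells with Cldn10 alone to cells with more Cldn16, Ptger3 and Sycn lie lower and Pth1r and Foxq1 higher in all 4 libraries, and the group with equal UMIs holds only 32, 12, 25 and 26 cells.

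The next comparison asked how the members differed between diets, within WT and within SP. With 1 library per condition, no test was made, and the intervals given are exact conditional binomial 95% intervals that cover counting error only, not differences between mice or preparations. Levels are CPM without mitochondrial UMIs. In both genotypes, the HFD library had lower levels of the linker histone genes Hist1h1c and H1f0, of Scd2 and other genes of sterol and lipid synthesis, and of S100g. It had higher levels of Ier3, Pck1, Rnaset2a, Tef and Umod. Of these genes, Pck1 and S100g had the same order by diet in endothelial barcodes, at levels of like size. The WT pair and the SP pair share no library.

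Of the 3710 genes that reached 50 CPM in any library, 27 (0.728%) were at least 2-fold higher and 20 (0.539%) at least 2-fold lower in WT-HFD than in WT-ND. In SP, 29 (0.782%) were higher and 26 (0.701%) lower. In both genotypes, 13 (0.35%) were higher and 7 (0.189%) lower. Without members with markers of other classes, 10 were higher and 5 lower in both genotypes. The median log2 ratio over all these genes was -0.02 in either genotype.

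Hist1h1c (chr13:23738808-23740367, plus strand), which encodes the linker histone H1.2, stood at 326, 61.0, 419 and 89.6 CPM. Both ND libraries were above both HFD libraries. Its log2 diet ratio, HFD over ND, was -2.42 in WT (-2.62 to -2.22) and -2.22 in SP (-2.38 to -2.07). At least 1 UMI was present in 37.2% of members in WT-ND and 63.1% in SP-ND, against 26.6% and 31.1% in the HFD libraries, and the 5 members with the most UMIs held between 5.56% and 13.3% of them. In Cldn16 cells, Hist1h1c was at 52.6, 37.6, 110 and 82.6 CPM, with diet ratios of -0.48 and -0.41, and in endothelial barcodes the ratios were -0.66 and -0.62. The linker histone gene H1f0 stood at 363, 156, 426 and 207 CPM in the members, with log2 ratios of -1.22 in WT and -1.04 in SP, and of -0.20 and -0.17 in Cldn16 cells. Zfp503, a zinc finger gene, stood at 156, 80.9, 208 and 103 CPM (-0.94 and -1.01), against ratios of -0.05 and 0.02 in Cldn16 cells and -0.88 and -0.46 in endothelial barcodes. The ratios of these 3 genes were thus farther from 0 in Cldn10 cells than in Cldn16 cells in both genotypes, which was not tested.

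Genes of sterol and lipid synthesis were lower on HFD in the members and in the other cell sets. The 6 listed genes that reached 50 CPM all had a log2 ratio below 0 in both genotypes, where 1461 (39.4%) of the 3710 genes did, and had medians of -0.73 in WT and -0.60 in SP. The 15 listed genes summed to 686, 420, 690 and 461 CPM in the members. They summed to 818, 575, 953 and 579 CPM in Cldn16 cells, to 487, 351, 556 and 350 CPM in endothelial barcodes and to 350, 293, 450 and 274 CPM in immune barcodes, so that the order by diet was the same in all 4 cell sets. Scd2, a stearoyl-CoA desaturase gene, stood at 78.1, 36.3, 82.2 and 36.4 CPM (-1.11 and -1.18), and its ratios in Cldn16 cells were -1.22 and -1.30. Hmgcs1, which acts early in cholesterol synthesis, stood at 242, 151, 222 and 175 CPM (-0.69 and -0.34). Sqle, the squalene epoxidase gene, stood at 37.9, 18.5, 42.6 and 21.3 CPM. Both HFD libraries were below both ND libraries for each of these 3 genes. Srebf1 was the one of the 15 that was not below 0 in both genotypes, with log2 ratios of 0.09 and -0.38. Msmo1, a sterol oxidase gene that is not in the list, had ratios of -0.76 and -0.81. Abca13, a transporter gene of the ABC family, stood at 639, 377, 723 and 427 CPM (-0.76 and -0.76), with ratios of -0.54 and -0.65 in Cldn16 cells.

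**Figure D3:**
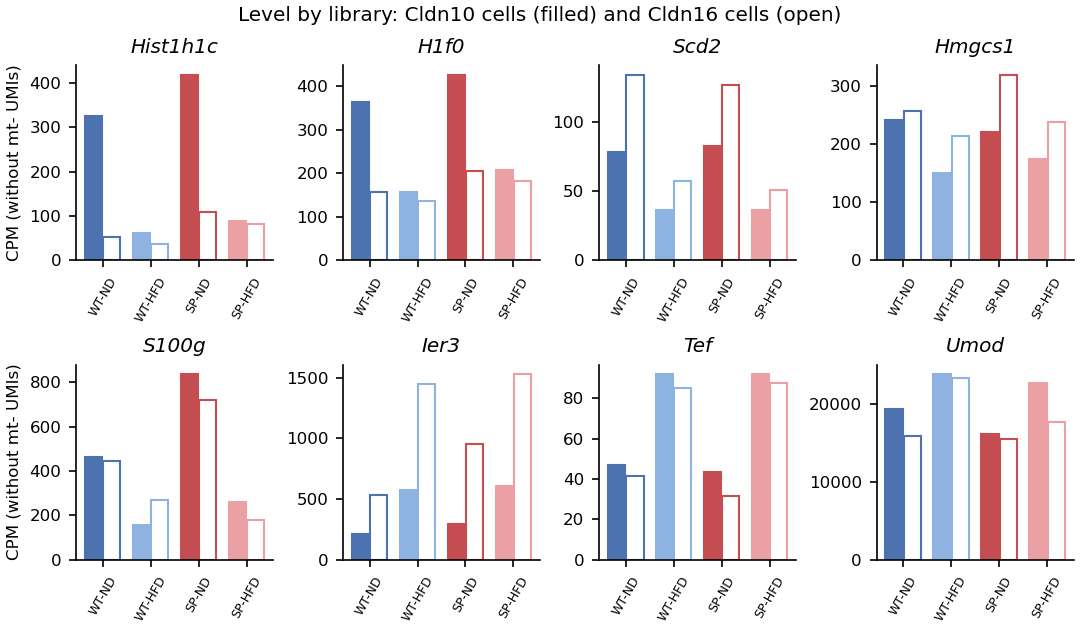
CPM without mitochondrial UMIs of 8 genes by library in Cldn10 cells (filled bars) and Cldn16 cells (open bars). Hist1h1c stands at 326 and 419 CPM in the ND libraries and at 61.0 and 89.6 in the HFD libraries in Cldn10 cells, against 37.6 to 110 CPM in Cldn16 cells, and the bars of Hist1h1c, Scd2, Ier3 and Tef follow the same order by diet in both cell sets.

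Ier3, an immediate early gene, stood at 213, 578, 291 and 610 CPM, a log2 ratio of 1.44 in WT (1.32 to 1.56) and 1.07 in SP (0.98 to 1.16). Its ratios were 1.44 and 0.69 in Cldn16 cells and -0.41 and -0.28 in endothelial barcodes. The 15 immediate early genes that reached 50 CPM had medians of 0.09 in WT and -0.43 in SP, with 9 above 0 in WT and 5 in SP, where 47.5% and 47.6% of the 3710 genes were. Rnaset2a, a ribonuclease gene, stood at 51.0, 148, 46.0 and 108 CPM (1.53 and 1.23), with ratios of 1.76 and 0.90 in endothelial barcodes. Flvcr1, a heme exporter gene, stood at 43.5, 93.0, 61.0 and 127 CPM (1.10 and 1.06), and its ratios were 1.03 and 0.64 in Cldn16 cells and 0.36 and 0.05 in endothelial barcodes. Pck1, which encodes a gluconeogenic enzyme of the proximal tubule, stood at 42.6, 186, 26.2 and 109 CPM (2.12 and 2.05). Its ratios in endothelial barcodes were 1.81 and 2.17, at levels of 55.4, 194, 36.2 and 162 CPM, so that the members held no more Pck1 than cells that should lack it.

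Clock-controlled genes had the same order by diet in endothelial barcodes as in the members. Tef stood at 47.1, 91.8, 43.7 and 92.1 CPM in the members (0.96 and 1.08) with ratios of 0.91 and 1.34 in endothelial barcodes. Dbp stood at 64.4, 105, 28.9 and 112 CPM (0.70 and 1.95), and Per3 at 21.8, 31.6, 12.2 and 31.4 CPM. Arntl, which peaks in antiphase to these genes, stood at 5.67, 2.14, 8.73 and 1.58 CPM. Of the 6 listed clock genes that reached 50 CPM, 4 had ratios above 0 and 2 below 0 in both genotypes, where 34.6% and 39.4% of the 3710 genes did. The time of day at which kidneys were taken was not given in the sources used here.

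S100g, the calcium-binding protein calbindin-D9k of the distal tubule, stood at 461, 158, 839 and 260 CPM, with log2 ratios of -1.55 and -1.69. Here 5 members held 44.9%, 29.2%, 54.6% and 66.4% of the UMIs, and endothelial barcodes held 479, 117, 589 and 190 CPM. Without members with markers of other classes, the ratios were -2.10 and -0.37. The part of RNA from other cells was not tested. Fabp1 stood at 24.2, 4.98, 102 and 1.13 CPM in the members and at 32.5, 3.91, 137 and 2.60 CPM in endothelial barcodes.

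The 3 highest diet ratios, by the smaller of the pair, were those of immunoglobulin genes and Jchain, and class II antigen presentation genes were among the 10 highest. Igkc, an immunoglobulin light chain gene, stood at 30.4, 1993, 3.28 and 1686 CPM. In the HFD libraries, 5 members held 75.6% of its UMIs in WT and 91.6% in SP, and the immune gate held 13008, 28951, 309 and 19994 CPM. Igha and Jchain followed, at 33.7, 550, 1.64 and 769 CPM and at 14.9, 352, 1.82 and 482 CPM. Cd74, the invariant chain of class II antigen presentation, stood at 40.6, 211, 67.1 and 267 CPM (2.38 and 1.99). It was present in 4.51%, 14.2%, 7.59% and 10.2% of members, and 5 members held 60.2% to 79.1% of its UMIs. When members with markers of other classes were left out, the WT ratio of Cd74 was -0.69 and the SP ratio 1.87. The class II genes H2-Aa (2.08 and 1.96), H2-Eb1 (2.00 and 2.07) and H2-Ab1 (1.56 and 2.16) and the fatty acid-binding protein gene Fabp4 (2.46 and 1.60) also had WT ratios below 0 without those members, at -1.27, -0.78, -1.52 and -0.27. The SP ratio of Fabp4 without them was 2.55.

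Among the genes 2-fold lower on HFD in both genotypes were the hemoglobin genes Hbb-bs and Hba-a1, which had few UMIs outside SP-ND. In SP-ND, a single cell held 2145 of the 2149 Hbb-bs UMIs, and Hbb-bs had 11, 3 and 0 UMIs in WT-ND, WT-HFD and SP-HFD. Hba-a1 stood at 11.3, 3.80, 197 and 1.36 CPM, and Hbb-bt had 0 UMIs in WT-ND and 1 in each HFD library, so that no WT ratio was given. Spag5, a mitotic spindle gene, was among the genes whose diet ratio differed most between genotypes, at 27.1, 82.1, 65.1 and 48.6 CPM (1.60 in WT and -0.42 in SP), which was not tested.

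**Figure D4:**
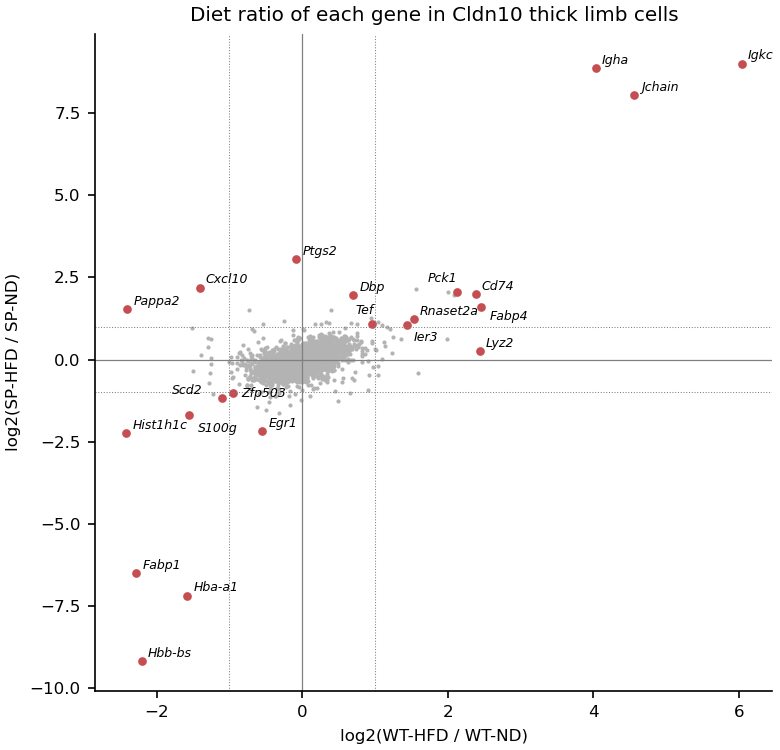
Log2 ratio of HFD to ND for the 3710 genes other than Hbb-bt in the members, with WT on the x axis and SP on the y axis, named genes in red, and dotted lines at 2-fold. Most genes lie near the origin, Hist1h1c, S100g and Scd2 lie below the 2-fold line in both genotypes, and Pappa2 and Cxcl10 lie on opposite sides of 0.

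None of the 13 salt transport genes of the TAL that reached 50 CPM and were not used by the gate was 2-fold different in either genotype, which is no more than the background, since 0.728% of all genes were 2-fold higher and 0.539% lower in WT, and 0.782% and 0.701% in SP. Their medians were -0.09 in WT and -0.28 in SP, and 8 of the 13 were below 0 in both genotypes, where 39.4% of the 3710 genes were. Kcnj1 stood at 727, 733, 815 and 730 CPM. Umod was higher on HFD, at 19317, 23880, 16168 and 22709 CPM (0.31 and 0.49), although by less than 2-fold. Egf stood at 10307, 8003, 6156 and 8009 CPM, with ratios of opposite sign (-0.37 and 0.38). Cldn19 was nearly level, at 246, 256, 258 and 262 CPM. Sycn stood at 157, 625, 212 and 325 CPM (1.99 and 0.62) and Cryab at 181, 397, 278 and 370 CPM (1.13 and 0.41).

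Broader groups had small shifts. The 77 ribosomal protein genes that reached 50 CPM had medians of 0.20 in WT and 0.28 in SP, and the 82 nuclear genes of oxidative phosphorylation had medians of 0.19 and 0.15. The 13 heat shock genes had medians of 0.29 and 0.34, although Hspa1a, at 195, 299, 187 and 245 CPM in the members, had ratios of -0.99 and -1.02 in endothelial barcodes. The 14 genes of fatty acid oxidation that reached 50 CPM had medians of -0.09 and 0.06, and Cpt1a was at 219, 216, 199 and 227 CPM. The injury gene Havcr1 had 3 UMIs in SP-HFD and none in the other libraries.

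Some genes had diet ratios that differed between genotypes, none of which can be tested with these libraries. Egr1, an immediate early transcription factor, stood at 175, 120, 519 and 115 CPM, and 74.3% of members held it in SP-ND against 21.2% to 28.3% in the other libraries. In Cldn16 cells Egr1 was at 100, 145, 532 and 124 CPM, so that SP-ND stood apart in both TAL cell sets. Ldha stood at 246, 190, 418 and 193 CPM, again highest in SP-ND, but at 134, 135, 121 and 133 CPM in Cldn16 cells. The 13 glycolysis genes that reached 50 CPM had medians of -0.0036 in WT and -0.29 in SP.

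Cells of the macula densa, the sensor of tubular NaCl at the end of the TAL, carry Slc12a1 and are among the barcodes that the gate can take. Their genes Nos1, Pappa2 and Ptgs2 were detected in few members. Nos1 was found in 19, 5, 7 and 11 members and stood at 37.3, 4.51, 2.55 and 10.9 CPM. Pappa2 was found in 27, 8, 9 and 19 members and stood at 79.0, 14.9, 6.0 and 17.4 CPM. Ptgs2, the cyclooxygenase-2 gene, was found in 16, 9, 20 and 22 members and stood at 20.6, 19.5, 7.10 and 59.3 CPM, with 127 of its 262 UMIs in SP-HFD in a single cell. These members were 2.19%, 1.33%, 2.30% and 2.78% of all, against 3.34%, 1.62%, 2.68% and 1.93% of endothelial barcodes, which were shallower, so that outside SP-HFD the share with Ptgs2 was at the background. Nos1 was detected in 0.727%, 0.294%, 0.141% and 0.203% of endothelial barcodes, against 2.60%, 0.739%, 0.806% and 1.39% of members. After thinning to 1000 UMIs, Nos1 was detected in 1 SP-ND member (0.116%) and in 1 SP-ND endothelial barcode (0.146%). These are too few to tell its share there from the background. WT-ND held the most Nos1 and Pappa2 and SP-HFD the most Ptgs2, each from a small number of cells.

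The last comparison asked how SP members differed from WT members on each diet. On either diet, SP members held less RNA of proximal tubule and principal cell genes and more of Klk1, Wnk1, Pycard and Defb42. On ND, 16 of the 3710 genes (0.431%) were at least 2-fold higher in SP and 32 (0.863%) lower. On HFD, 8 (0.216%) were higher and 21 (0.566%) lower. On both diets, 1 (0.027%) was higher, which was Fabp4 (2.05 and 1.19), and 14 (0.377%) were lower. Without members with markers of other classes, 5 rather than 21 were lower on HFD, none was higher on both diets, and 1, Igkc, was lower on both. Fabp4 stood at 7.46, 41.0, 30.9 and 93.6 CPM in the members and at 1068, 4569, 2671 and 5674 CPM in endothelial barcodes. Its genotype ratio on HFD was -1.63 in Cldn16 cells, and in the members without those markers its ratios were 0.28 on ND and 3.11 on HFD. The part of RNA from other cells was not tested. The median log2 ratio over all genes was 0.06 on either diet, and 1554 genes (41.9%) were above 0 on both diets.

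Klk1, the gene of tissue kallikrein, a protease of the distal nephron, stood at 679, 579, 1144 and 1232 CPM. Both SP libraries were above both WT libraries, with log2 ratios of 0.75 on ND and 1.09 on HFD. In Cldn16 cells the order was the same, with ratios of 1.11 and 1.85, and endothelial barcodes, at 53.1 to 136 CPM, had ratios of 0.96 and 0.76. Wnk1 stood at 438, 346, 616 and 581 CPM (0.49 and 0.75), with ratios of 0.89 and 0.48 in Cldn16 cells and -0.03 and 0.02 in endothelial barcodes. Eno1, a glycolytic enzyme gene, stood at 338, 276, 473 and 371 CPM (0.48 and 0.43). Of the 13 glycolysis genes that reached 50 CPM, 13 had a ratio above 0 on ND (median 0.37) and 9 on HFD (median 0.06). Over the 3710 genes, 64.7% were above 0 on ND and 64.9% on HFD, and the median was 0.06, so that on HFD these genes were near the background. Pycard, an inflammasome adaptor gene, stood at 29.5, 57.4, 57.3 and 85.5 CPM, and Defb42, a beta-defensin gene, at 63.8, 47.0, 112 and 69.7 CPM.

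Of the 14 listed proximal tubule markers, 8 reached 50 CPM and were not used by the gate. On ND, 5 of these 8 were at least 2-fold lower in SP, where 32 (0.863%) of the 3710 genes were. On HFD, 4 of the 8 were, where 21 (0.566%) of the 3710 genes were. The 8 were all below 0 on both diets, where 454 (12.2%) of the 3710 genes were. They had medians of -1.17 on ND and -1.09 on HFD. Kap stood at 4302, 2709, 617 and 1121 CPM (-2.80 and -1.27), and Dnase1 at 91.0, 176, 28.0 and 67.9 CPM (-1.70 and -1.37). Ces1f (-2.08 and -1.37), Cyp4b1 (-2.12 and -1.31), Akr1c21 (-1.34 and -1.29), Acsm2 (-1.69 and -1.23), Slc22a6 (-1.22 and -1.27), Cyp2e1 (-2.58 and -1.14) and Slc27a2 (-1.26 and -1.09) followed. Kap had ratios of -2.36 and -0.49 in endothelial barcodes and of -2.71 and 0.01 in the immune gate. On ND the ratio was thus shared by cells of other types, and on HFD it was farther from 0 in the members than in the other gates. When members with markers of other classes were left out, the ratio of Kap on HFD was -0.66 and that of Dnase1 -0.85. Aqp2, the water channel of principal cells, stood at 95.7, 126, 44.8 and 47.3 CPM (-1.10 and -1.42), and without those members, who were left out partly by their Aqp2 UMIs, its ratios were 0.68 and -0.03. The part of RNA from other cells in these ratios was not tested further.

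**Figure D5:**
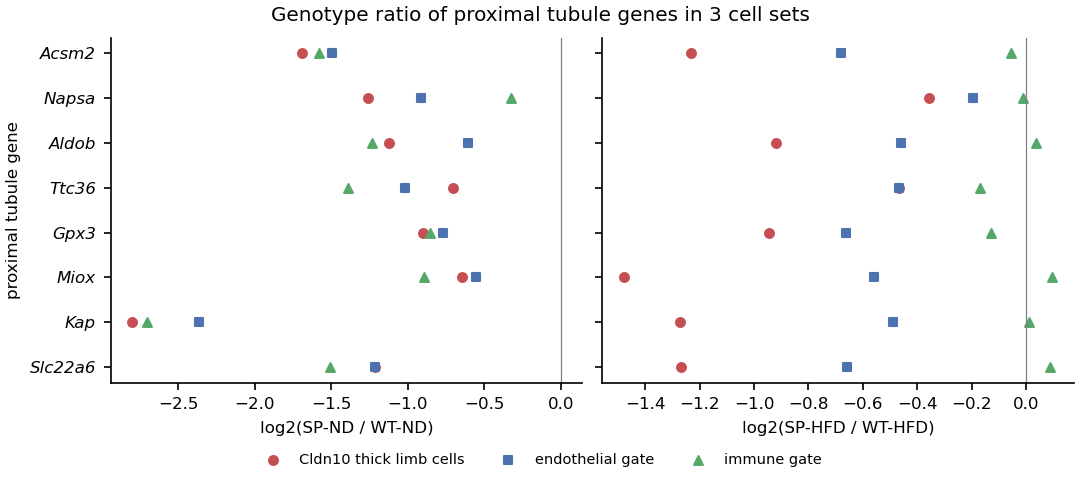
Log2 ratio of SP to WT on ND (left) and on HFD (right, with its own x axis) for the 8 proximal tubule markers with at least 50 CPM that the gate did not use, in Cldn10 cells (circles), endothelial barcodes (squares) and immune barcodes (triangles). On ND all 3 cell sets lie below 0 for every gene, and on HFD the immune barcodes lie near 0 while the Cldn10 cells lie lowest or level with the endothelial barcodes.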

How the data were processed

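Whole kidneys of the 4 conditions had been digested with enzymes, and cells were captured with 3′ gene expression chemistry on the 10x Chromium. The authors aligned reads to mm10 with Cell Ranger (2.1.1 per the submitters' processing notes, 6.1.2 per the file headers) and deposited UMI counts per gene and barcode, without normalization. The labels do not say how many mice each library holds. No doublet caller was run here.

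Barcodes were gated as the report describes. The members and the gene lists were chosen with earlier results of these data known. UMIs were summed per library. Cldn10 and Cldn16 cells were compared with edgeR 4.0.16 (glmQLFit, TMM, filterByExpr, library as a block) in R 4.3.3, with DESeq2 1.42.0 as an alternative. Diet and genotype ratios are log2 ratios of CPM without mitochondrial UMIs, with exact binomial intervals (SciPy 1.17.1) and a floor of 3 counts for a count of 0, with no ratio where both counts were at or under 3. Named genes were, per diet or genotype comparison, the 10 highest and 10 lowest by the smaller ratio of the pair, the 5 with the largest and 5 with the smallest diet difference between genotypes, the 10 highest and 10 lowest of the test that agreed in sign in 4 libraries, and any member of a listed pathway or marker set. The edgeR test was checked on simulated negative binomial counts in which libraries differed in depth only, and the intervals of the ratios on simulated Poisson counts. These checks do not cover differences between mice, conditions or preparations. Immune barcodes were gated like endothelial barcodes, on 6 leukocyte genes. Some genes of the lists, which stay in the counts and medians, are not reported here by name.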

Additional observations from a re-analysis of the deposited data

Results flagged for a closer look

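A few genes had diet or genotype ratios of opposite sign in the groups compared. The difference was not tested, since there is 1 library per condition. The log2 diet ratio of Pappa2, a protease gene of the macula densa, was -2.40 in WT and 1.54 in SP, a difference of -3.94, and the gene was found in 27, 8, 9 and 19 members, the WT libraries first and ND before HFD. Cxcl10, a chemokine gene, had diet ratios of -1.41 in WT and 2.19 in SP and genotype ratios of -1.58 on ND and 2.03 on HFD, a difference of -3.60 either way, and 5 members held 52.0% to 63.9% of its UMIs in each library. Ptgs2 had genotype ratios of -1.54 on ND and 1.61 on HFD, a difference of -3.14. These came from 69, 82, 39 and 262 UMIs, and many of those in SP-HFD lay in a single cell, as given above. Fabp1 had genotype ratios of 2.08 on ND and -2.14 on HFD, a difference of 4.22, and its ratios in endothelial barcodes were 2.08 and -0.59. The members held 81, 21, 562 and 5 UMIs of Fabp1, so the ratio on HFD rests on few UMIs. Hba-a1 had genotype ratios of 4.12 on ND and -1.48 on HFD, a difference of 5.60. It had 38, 16, 1081 and 6 UMIs, so the ratio on HFD rests on few UMIs. The ratio on ND rests on SP-ND, where a single cell held nearly all UMIs of the other hemoglobin gene Hbb-bs.

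Barcodes with 50% or more mitochondrial UMIs were outside the limits of the members. Of these, 178 and 253 in the WT libraries (ND, then HFD) and 372 and 335 in the SP libraries met the rest of the gate, including the excess of Cldn10 over Cldn16 UMIs.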

How the results depend on the processing

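Intervals cover counting error only, and with 1 library per condition no ratio by diet or genotype has a replicate error. Of 3004 ratios of single genes under alternatives, 2518 moved by less than their counting interval, 476 moved by more and 10 were classed as a change of sign. That class took only ratios that were at least 2-fold in the main setting. Changes of sign in smaller ratios are counted among the 2518 and the 476. Of 1121 test results, 1029 kept direction and side of the threshold, 75 lost significance, 7 gained it and 10 changed sign. On all UMIs, mitochondrial ones included, the median diet ratio in SP was 0.12 rather than -0.02. That setting also left 2479 rather than 3710 genes past the CPM minimum, and the 2 changes were not separated.

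With at least 1000 UMIs per cell, the shares of members (WT first, ND before HFD) were 8.23%, 7.38%, 14.3% and 11.6%, so that WT-ND was above WT-HFD, the reverse of the main order. Under 30% mitochondrial UMIs they were 3.46%, 4.32%, 5.84% and 6.12%, which turned the order by diet in SP, and without cells with markers of other classes 5.94%, 5.76%, 11.1% and 9.36%, again with WT-ND above WT-HFD. With at least 2 Cldn10 UMIs, the WT-ND share was 6.11%.

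Counts of genes past 2-fold moved by over 1.5 times in these cases. With at least 10 CPM, which 9284 rather than 3710 genes reached, 94 were higher and 100 lower by diet in WT, 99 and 112 by diet in SP, 73 and 123 by genotype on ND, and 47 and 79 on HFD. With at least 100 CPM, which 1846 genes reached, 14 were higher and 10 lower by diet in WT, 15 higher by diet in SP, 6 higher and 16 lower by genotype on ND, and 3 higher on HFD. Under 30% mitochondrial UMIs, 43 were lower by diet in WT, 40 lower by diet in SP, 35 higher by genotype on ND and 14 higher on HFD. On all UMIs, 16 were lower by diet in SP and 9 higher by genotype on ND. By genotype on HFD, 13 were higher with at least 2 Cldn10 UMIs, 3 higher as a mean over cells, and 5 lower without cells with markers of other classes. For the settings other than the CPM minimum, the cause was not tested.

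Between Cldn10 and Cldn16 cells, DESeq2 called 367 higher and 305 lower, of which 670 were shared with edgeR. Without the replicate block (the library), 406 were higher and 280 lower, so the pairing by library added calls. Leaving out a library gave 498 to 707 higher and 383 to 536 lower, the lowest without SP-ND. After thinning to 1000 UMIs, 128 were higher and 119 lower, with 4532 genes tested.

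Without cells with markers of other classes, several log2 ratios changed sign. Among diet ratios in WT, these were Cd74 (-0.69), Fabp4 (-0.27), H2-Aa (-1.27), H2-Ab1 (-1.52), H2-Eb1 (-0.78), Il1b (-1.41), Vim (-0.36) and Hba-a1 (1.53). Among genotype ratios on ND, they were Aqp2 (0.68), Il1b (-0.80), Cd74 (-0.84) and S100g (-0.19). Of the test's genes that had not passed, Aqp2 changed sign without SP-ND (0.0058, with -1.03 the lowest when another library was left out) and after thinning (0.026), Kap without WT-HFD (-0.068, with 0.28 the highest) and without cells with markers of other classes (-0.0096), Ptgs2 without WT-ND (-0.0061), without SP-HFD (-0.65) and without shared barcodes (-0.18), and Slc12a3 after thinning (0.054). With at least 2 UMIs of the leading claudin and 0 of the other, Umod was at -0.040 and Slc12a3 at 1.19, which then passed the test.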
